A study of Tupaia belangeri with 2 samples.

Results

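TCF7L2 was described across the cells of the fetal tree shrew (Tupaia belangeri) brain, as 1 gene model of 23975 in the count matrices. The annotation names it once, as model evm.model.chr15.305. It was chosen with its own UMIs across the cell groups of these libraries already known, so its levels are given as a description with no test. The data are single-cell RNA counts of the whole brain of 2 embryos past the middle of gestation, 1 library from each, with no genotype, treatment or sex in the labels. Both embryos belong to 1 group, so every value is given for embryo 1 and then for embryo 2, and the spread between them is the only biological replicate error. Of 17735 cells with at least 200 genes detected, 1505 of 8408 in embryo 1 and 1695 of 9327 in embryo 2 held at least 1 TCF7L2 UMI, a UMI being 1 counted RNA molecule.

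TCF7L2 encodes a transcription factor of the TCF/LEF family, which binds DNA at Wnt target genes. When Wnt ligand reaches a cell, beta-catenin (CTNNB1) accumulates, enters the nucleus and turns TCF/LEF proteins from repressors, working with Groucho (TLE) proteins, into activators. In the vertebrate brain TCF7L2 is best known as a marker and regulator of postmitotic neurons of the thalamus, the medial habenula and parts of the midbrain tectum and pretectum, and it is also made in some progenitors and in maturing oligodendrocytes.

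The libraries held 41868023 and 38077767 UMIs over all barcodes, with medians of 3539 and 3169 UMIs per kept cell. Haemoglobin transcripts took 22.5% of UMIs in embryo 1 and 8.38% in embryo 2. Before cells were filtered, 18 barcodes occurred in both libraries. Cells were clustered without TCF7L2, TCF7, TCF7L1, LEF1 and CTNNB1 among the clustering genes, which gave 16 clusters, and a cluster was called "-like" only where at least 3 listed markers were raised in it. Levels are in CPM, the UMIs of a gene per 1000000 UMIs summed over the cells of a group in 1 embryo, and the clusters, whose other genes shaped them, are not independent samples.

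TCF7L2 was concentrated in a pair of neuron clusters. The highest level was in cluster 5, with 1277 and 1189 CPM (mean 1233 ± 62.6, SD, n = 2), where 43.3% and 38.9% of cells held a UMI. This cluster carried raised ZIC1, ZIC2, ZIC4 and CBLN1, all known from cerebellar granule cells, but its leading genes were neurofilaments (NEFL, under the name NFL, and NEFM), GNG8, a G protein subunit known from the habenula, and KITLG, the ligand of the KIT receptor, so the cluster was left unnamed. Cluster 3 followed with 846 and 779 CPM (813 ± 47.4), and 48.4% and 48.3% of its cells held a UMI. It was midbrain or thalamus excitatory neuron-like by SLC17A6, the vesicular glutamate transporter VGLUT2, and the transcription factors EBF3, LHX9, SHOX2 and BARHL2. Together both clusters held 73.0% and 78.1% of all TCF7L2 UMIs in kept cells.

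All other clusters lay far below. The next was cluster 11, radial glia-like with raised BCAN, VCAM1 and CLU, at 111 and 208 CPM. It was followed by the midbrain GABA neuron-like cluster 0 at 144 and 69.9 CPM, and by the dividing cell-like clusters 4 (93.5 and 98.4 CPM) and 9 (102 and 87.0 CPM). From cluster 11 down to the erythroid-like cluster 8, the embryo values of each cluster overlapped those of its neighbour in the order, so neighbouring places were not resolved, while clusters farther apart, such as 4 and 9 against 7 and 8, did not overlap. Only the steps from cluster 5 to cluster 3 and from cluster 3 to cluster 11, and the lowest one from cluster 8 to cluster 15, had embryo values that did not overlap.

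**Figure D1:**
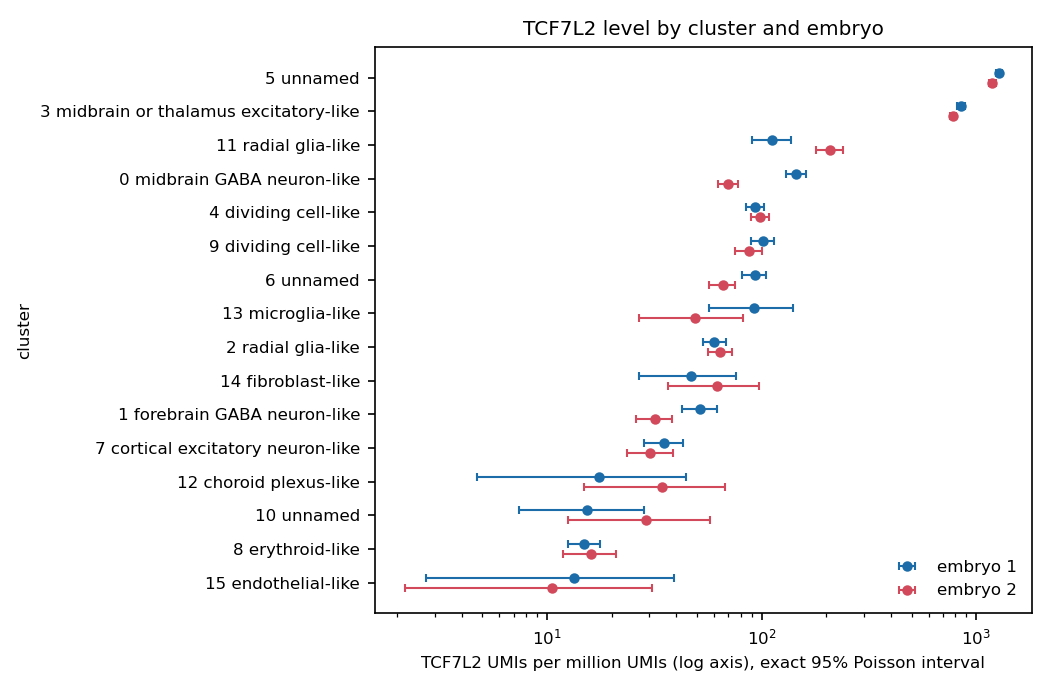
TCF7L2 level in CPM (log axis) in each of the 16 clusters, ordered by the mean of both embryos, with blue points for embryo 1, red points for embryo 2 and bars for exact 95% Poisson intervals, which cover counting error only. Clusters 5 and 3 stand above 779 CPM in both embryos while every other cluster is at or below 208 CPM.

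Erythroid-like cluster 8 is given for comparison, though whether its cells make the gene was not tested. It had 14.9 and 16 CPM, and 5.14% and 4.31% of its cells held a UMI at median depths of 12416 and 14345 UMIs. With each cell thinned to 2000 UMIs, these shares were 1.73% and 1.32%. At the finer resolution most erythroid cells, finer cluster 12 with 545 and 179 cells, had 1.72 and 1.98 CPM on 12 and 5 UMIs, and a smaller erythroid-like group, finer cluster 19, had 56.9 and 69.7 CPM. The cortical excitatory neuron-like cluster 7 had 35.0 and 30.3 CPM and thinned shares of 3.21% and 2.81%, and the forebrain GABA neuron-like cluster 1 had 51.6 and 31.8 CPM and thinned shares of 2.93% and 3.50%. Without the cells of highest Scrublet score (a score of likely doublets, droplets with more than 1 cell), the mean of cluster 8 was 6.10 CPM and that of cluster 7 was 27.3 CPM. Thinning left out 25 and 5 shallower cells of cluster 8, 30 and 30 of cluster 7 and 494 and 669 of cluster 1. The endothelial-like cluster 15 held 3 UMIs in each embryo.

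At a finer resolution, which gave 25 clusters from the same cell graph, the signal separated into cell groups of very different level. Finer cluster 16, with 231 and 195 cells, had 2908 and 3004 CPM, and 93.1% and 91.8% of its cells held a UMI. It made up 30.6% and 25.2% of cluster 5. Finer cluster 5, with 385 and 705 cells and most of its members in cluster 3, had 1324 and 1292 CPM with 66.5% and 67.0% of cells positive. The rest of cluster 3, finer cluster 11, had 227 and 119 CPM with 22.0% and 20.4% of cells positive. The rest of cluster 5, finer cluster 7, had 502 and 493 CPM with 19.3% and 17.7% of cells positive. In each parent cluster, therefore, the bulk of TCF7L2 lay in 1 of its finer groups.

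The pair of TCF7L2-rich finer groups carried different companions. Finer cluster 16 had GNG8 at 631 and 840 CPM against 0.703 and 3.59 in finer cluster 5. KITLG was at 366 and 562 CPM against 2.81 and 1.99, ZIC1 at 249 and 216 CPM against 26.0 and 23.5, and NEFM, a neurofilament of maturing axons, at 3059 and 2971 CPM against 260 and 219. Finer cluster 5 had TFAP2D, an AP-2 factor of the developing tectum, at 445 and 499 CPM against 7.12 and 12.5 in finer cluster 16. POU4F2, a POU factor of retinal and tectal neurons, was at 96.4 and 114 CPM against 4.74 and 1.38, and BARHL2, a homeobox factor of diencephalic and midbrain neurons, at 50.6 and 55.0 CPM against 4.74 and 1.38. LHX9, a LIM homeobox factor of early thalamic and tectal neurons, was present in both, at 222 and 208 CPM in finer cluster 16 and 276 and 337 CPM in finer cluster 5. SLC17A6 was also similar, at 183 and 195 CPM against 173 and 161 CPM. These genes took part in the clustering, so the values describe the groups and test nothing.

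TCF7L2 was unevenly spread over the cells of a cluster, to differing degrees. From each cell's own depth, the share of cells with a UMI was computed as it would be if every cell of a cluster had the cluster's mean level. For cluster 5 this share was 95.2% and 94.2%, against the 43.3% and 38.9% observed. For cluster 3 it was 93.2% and 91.8%, against 48.4% and 48.3%. For GABA cluster 0 it was 28.8% and 14.8%, against 4.8% and 4.05%. Positive cells of cluster 5 held a mean of 10.8 and 11.0 UMIs, and the highest cell held 58. In radial glia-like cluster 2, by contrast, the computed share of 20.0% and 23.4% stood close to the observed 16.7% and 20.0%, and positive cells held a mean of 1.46 UMIs in both embryos. The unnamed progenitor-type cluster 6, led by the patterning and Notch genes DBX1, DLL3 and JAG1, had 20.4% and 20.8% of cells positive against 29.6% and 23.1% computed. The gap was wider in the other progenitor-type clusters in at least 1 embryo. Cluster 11 had 26.4% and 33.3% of cells positive against 36.9% and 57.4% computed, cluster 4 had 25.8% and 23.6% against 38.0% and 39.7%, and cluster 9 had 28.1% and 34.4% against 42.0% and 38.3%.

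**Figure D2:**
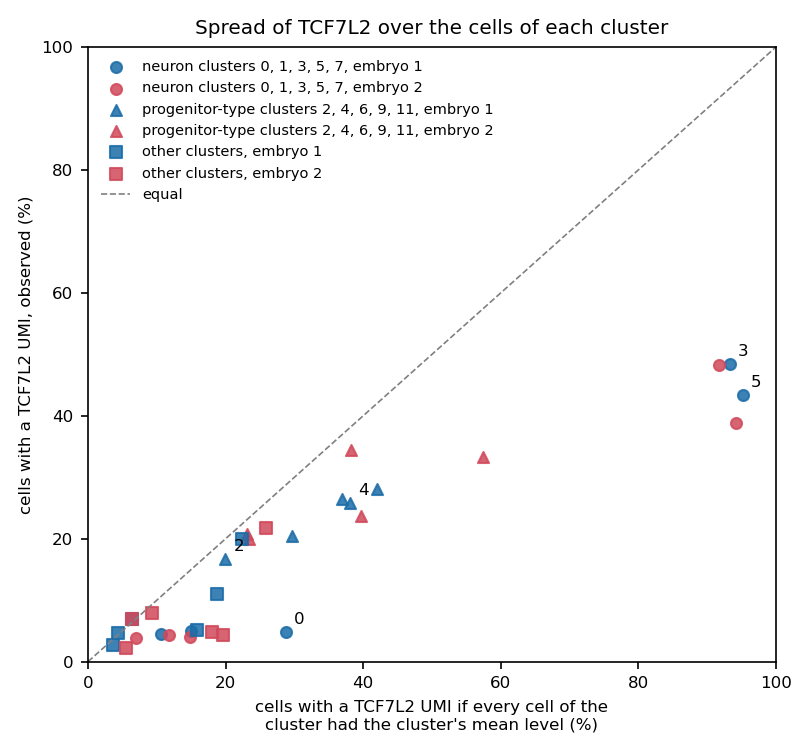
Observed share of cells with a TCF7L2 UMI (vertical axis, %) against the share computed if all cells of a cluster had its mean level (horizontal axis, %), with circles for neuron clusters, triangles for progenitor-type clusters, squares for other clusters, and colours for the embryos. Neuron clusters 3, 5 and 0 lie far under the dashed line of equality, and radial glia-like cluster 2 lies near it.

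Cells with 10 or more TCF7L2 UMIs numbered 257 and 308 and held 58.5% and 58.1% of the gene's UMIs. Of these cells, 60.3% and 49.4% lay in cluster 5 and 26.5% and 37.7% in cluster 3. A further 14 and 18 cells, 5.45% and 5.84%, lay in midbrain GABA neuron-like cluster 0. Within clusters 3 and 5, LHX9 was detected in 57.4% and 55.2% of such cells against 15.1% and 25.5% of cells with no TCF7L2 UMI. EBF3, an early B-cell factor of postmitotic neurons, went the other way, at 15.2% and 11.6% against 39.8% and 37.6%.

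Cells were also gated by detected marker genes, without clustering, each going to the first gate it met. Erythroid, microglia, endothelial, fibroblast and choroid plexus cells were taken out first, then dividing cells. The GABA, cortical, SLC17A6 and radial glia gates followed in that order. Dividing, cortical and radial glia cells each needed more than a single gene of a marker set. Of the cells left for it, the SLC17A6 gate took those with SLC17A6 and no GAD1 or GAD2, the GABA synthesis enzymes. Its cells had 1289 and 1070 CPM of TCF7L2. Among them, cells with a ZIC1, ZIC2 or ZIC4 UMI and no EBF3 or GBX2 had 2754 and 2186 CPM, cells with EBF3 and no ZIC had 543 and 476 CPM, and cells with none of these had 1077 and 972 CPM. GABA cells without DLX genes, which mark the forebrain GABA lineage, had 223 and 141 CPM, and those with DLX had 11.2 and 43.9 CPM. Among the former, cells with GATA2, GATA3, TAL1 or OTX2 and no TFAP2A, TFAP2B or PAX7 had 280 and 159 CPM, while cells with TFAP2A, TFAP2B or PAX7 had 97.4 and 70.4 CPM and cells with none of these genes 271 and 185 CPM. Cortical cells had 36.4 and 26.3 CPM, dividing cells without DLX 159 and 128 CPM, and non-dividing radial glia 76.8 and 67.9 CPM. Cells that met no gate had 419 and 445 CPM. They held 32.4% and 40.8% of TCF7L2 UMIs in kept cells, against 27.5% and 28.8% in the SLC17A6 gate. The splits by gate below left these cells out.

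The other TCF/LEF genes were distributed differently. LEF1 was highest in cluster 3, at 91.4 and 113 CPM, followed by GABA cluster 0 at 58.9 and 81.5 CPM, and in cluster 5, where TCF7L2 peaked, it was at 21.3 and 23.8 CPM. TCF7L1, a family member known mainly as a repressor in stem and progenitor cells, was at 12.4 to 28.4 CPM across progenitor-type clusters 2, 4, 6, 9 and 11 and at 0.425 to 2.07 CPM across neuron clusters 0, 1, 3, 5 and 7. TCF7 had 30 UMIs in all kept cells. CTNNB1 was broad, from 214 to 689 CPM across the neuron clusters. LEF1 was thus high in cluster 3, as TCF7L2 was, but not in cluster 5, and TCF7L1 was low in both. Oligodendrocyte genes gave little to compare, with 7 UMIs of SOX10 and 19 of MBP in the kept cells.

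**Figure D3:**
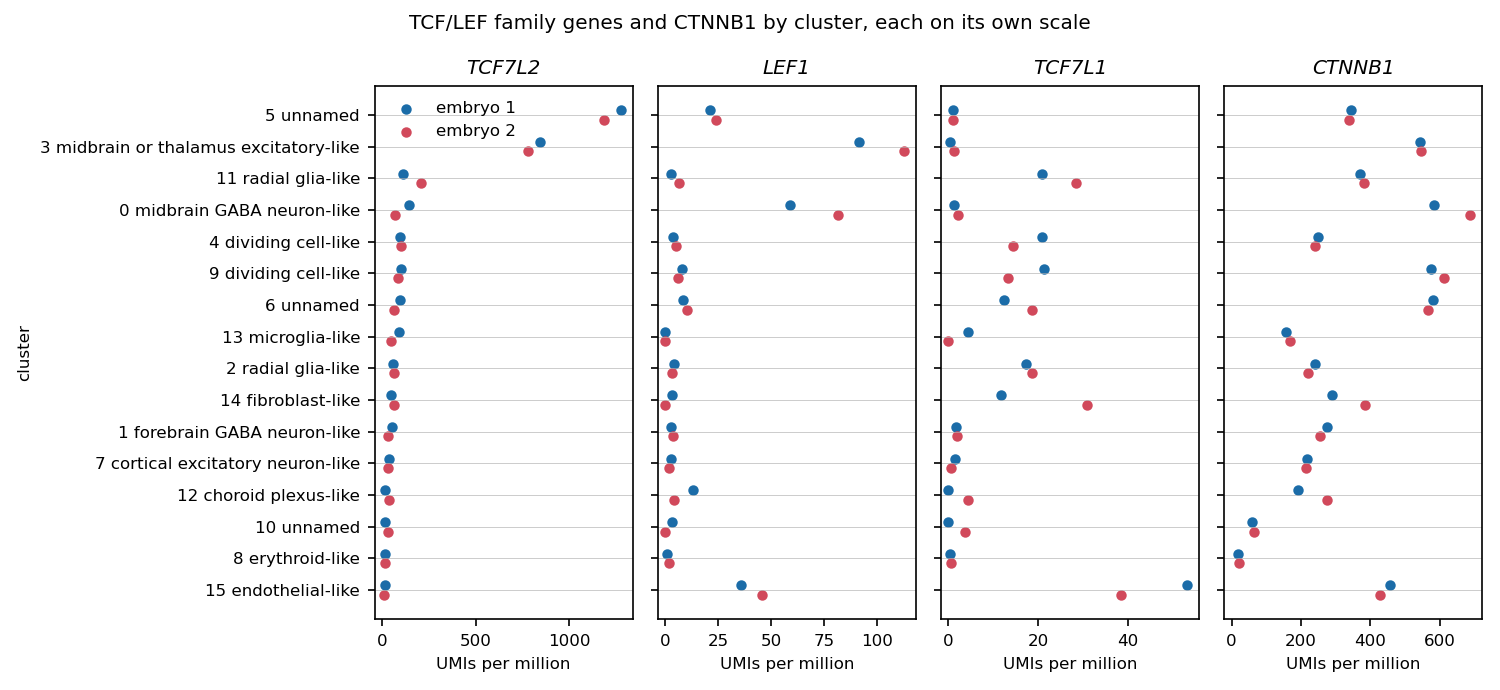
Levels of TCF7L2, LEF1, TCF7L1 and CTNNB1 (CPM, each panel on its own axis) in the 16 clusters, ordered as in the plot of TCF7L2 levels, with blue points for embryo 1 and red points for embryo 2. LEF1 peaks in cluster 3 at 91.4 and 113 CPM, and TCF7L1 stays at or below 2.07 CPM in the neuron clusters.

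The genes whose profile over the 16 clusters was most like that of TCF7L2 were ranked by the lower of both embryos' Pearson r of log2(CPM + 1), among 8199 genes with at least 200 UMIs. ONECUT1, a cut-homeobox transcription factor, came first with r = 0.957 and 0.833, and its relative ONECUT2 was the tenth with 0.783 and 0.717. Between them stood LSM11, SLC35G2, HMGCS1, PCSK2, SORC2, NCAM1, PPP1R1A and SEZ6L. The points share libraries and depth and the median r over all ranked genes was 0.344, so these are descriptions. In finer cluster 16, with the highest TCF7L2 level, ONECUT1 was at 7.12 and 15.2 CPM against 82.3 and 79.0 in finer cluster 5.

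To ask which genes went with TCF7L2 inside a cell class, the cells of each gate in each embryo were divided into those with at least 1 TCF7L2 UMI and those with none, and the summed counts were compared with edgeR's quasi-likelihood test with the embryo as block. Of the gates, 5 had at least 20 cells on each side of the split in both embryos, and 7195 genes besides TCF7L2 were tested. Depth differed across the split. Medians were 3735 and 3702.5 UMIs in positive against 3653 and 3500.5 in negative cells of the SLC17A6 gate, but 3456.5 and 3121 against 2289 and 2180 in the GABA gate without DLX and 4969 and 5336.5 against 4024 and 4097 in dividing cells without DLX. With detection scored in cells thinned to 2000 UMIs, the original depths still differed in the GABA gate, with 3610 and 3282 against 2885.5 and 2793.5 UMIs.

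In glutamatergic (SLC17A6) cells LHX9, KITLG, GNG8, 3 ZIC genes and 2 neurofilament genes were among those higher in TCF7L2-positive cells. POMC, EBF3 and LHX1 were among those lower. So were 3 cortical genes, which also define the cortical gate filled before this one. In total 59 genes were higher, 0.82% of those tested, and 99 lower, 1.38%, at an adjusted p under 0.05. Of 11 thalamus-list genes named in the annotation 9 were tested, 3 were higher and 0 lower, and their median log2 fold change was 0.12 against -0.01 over all genes. The listed thalamus factors LHX2 and RORA had no name in the annotation and could not be read. SLC17A6, a gene of that list, defined the gate. The gene lists were drawn up with earlier results of these data known, so their counts here and below are descriptions. The gene LHX9 rose from 94.1 to 276 CPM in embryo 1 and from 120 to 293 CPM in embryo 2 (log2 fold change 1.39 ± 0.15, SE, adjusted p = 1.4e-08, edgeR quasi-likelihood test). KITLG went from 25.8 to 192 and from 12.2 to 206 CPM (3.47 ± 0.27, adjusted p = 2.56e-12), and FOXP2, a forkhead factor of thalamic and other neurons, from 20.6 to 47.3 and from 30.4 to 59.8 CPM (1.04 ± 0.26, adjusted p = 0.0151). Of 5 tested habenula-list genes, 2 were higher and 0 lower. They were GNG8, from 39.9 to 176 and from 19.1 to 187 CPM (2.70 ± 0.22, adjusted p = 1.33e-11), and the Iroquois homeobox gene IRX2 (1.35 ± 0.36, adjusted p = 0.0282, edgeR). They marked different finer groups. IRX2 was at 7.12 and 1.38 CPM in finer cluster 16 and at 41.5 and 49.5 CPM in finer cluster 5, the reverse of GNG8. Of the other listed genes, POU4F1 (4.74 and 0 against 20.4 and 23.1 CPM) and IRX1 were also lower in finer cluster 16. CHRNA3 was higher there (8.30 and 4.15 against 0 and 0 CPM).

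Of 6 tested ZIC and granule genes, 3 were higher and 1 lower. ZIC4 rose by 2.26 ± 0.36, ZIC1 by 1.66 ± 0.21 and ZIC2 by 1.10 ± 0.23 on the log2 scale, while NEUROD1, a bHLH factor of granule and cortical neurons, fell by 2.91 on that scale. NEFM (1.42 ± 0.21) and NEFL (1.56) were the 2 of 7 tested neuron maturation genes that passed, with 0 lower. The remaining genes of largest rise included PDZRN4 (2.61 ± 0.25), an E3 ligase-like scaffold protein, and WLS (2.04 ± 0.18), which carries Wnt ligands to the cell surface. CTHRC1, a secreted glycoprotein, had 29 and 26 UMIs in the positive cells and 0 in the negative cells, so its level was at least 18.3-fold higher against a floor of 3 counts over both embryos. KLHL14, SMCO4, PRSS12, GABRA3, CLYBL and MAST4 completed the highest 12, with log2 fold changes of 1.66 to 2.32.

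Of the named genes with UMIs on both sides of the split, POMC fell most. POMC, the hypothalamic peptide precursor, was at 117 and 123 CPM in TCF7L2-negative cells and at 1.21 and 5.43 CPM in positive ones (log2 fold change -5.04 ± 0.38, adjusted p = 3.53e-12). NKX2-1, a factor of the ventral forebrain and hypothalamus, fell by 3.72 on the log2 scale. FEZF1, with 22 UMIs in negative and 0 in positive cells, was at least 7.34-fold lower, and NTS, the neurotensin precursor, at least 5.01-fold lower. Cortical genes followed, with 3 of 4 tested lower, at -3.37 for TBR1, -2.92 for FEZF2 and -2.46 for NEUROD6. These 3 genes also define the cortical gate, which was filled before this one. They therefore helped decide which cells were left to split, and their fall is no free result. Of 13 tested midbrain and pretectal genes, 1 was higher and 3 were lower. TFAP2D rose by 0.97 ± 0.22, and EBF3 (-0.76 ± 0.17, adjusted p = 0.00547), LHX1 (-2.71 ± 0.45) and LHX5 (-3.0 ± 0.80) fell. UNCX, DMRTA1, DIRAS3, C1QL3, NFIA and VIL2 were the other genes of largest fall, at -4.75 to -3.03. Of the 7 midbrain GABA, 9 progenitor, 7 Groucho and 3 other-cell-type genes tested, none passed in this gate. The gate had 53 calls without the embryo as block and 104 by DESeq2. In cells thinned to 2000 UMIs, 98 of the 158 calls were kept among 143.

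The gate mixed cell groups, so the same split was also made within clusters 3 and 5, an analysis added after the data were seen, with 8807 genes tested. In cluster 3, 186 genes were higher, 2.11%, and 209 lower, 2.37%. There the split ran along transcription factors of the midbrain and thalamus. LHX9 (0.97 ± 0.13), TFAP2D (0.91 ± 0.14), MEIS2 (1.24 ± 0.19), IRX1 (1.80 ± 0.31) and IRX2 (1.51 ± 0.24) were higher in TCF7L2-positive cells. EBF3 (-1.08 ± 0.15), SHOX2 (-0.98 ± 0.16), TFAP2B (-0.89 ± 0.12), its family member TFAP2A (-1.37), EBF2 (-1.5), PAX3 (-1.70), OTX2 (-2.11) and NEUROD1 (-3.30) were lower. EBF3 stood at 297 and 251 CPM in negative and at 139 and 131 CPM in positive cells. Of 15 midbrain and pretectal genes tested 2 were higher and 6 lower, and of 6 ZIC and granule genes 0 were higher and 4 lower, including ZIC1 (-0.84) and ZIC2 (-0.91), the opposite direction to that in the SLC17A6 gate as a whole. KITLG and GNG8 did not pass in cluster 3, at -0.20 and 0.06.

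In cluster 5, 266 genes were higher, 3.02%, and 232 lower, 2.63%, and the changes were larger. GNG8 went from 16.8 to 424 and from 20.2 to 527 CPM (4.77 ± 0.22), LHX9 from 15.5 to 185 and from 13.5 to 183 CPM (3.78 ± 0.22), SHOX2 from 16.8 to 88.6 and from 7.35 to 96.1 CPM (3.05 ± 0.28). The ZIC list had 4 higher and 0 lower of 6 tested, ZIC5 (2.42 ± 0.34) and ZIC4 (2.05 ± 0.24) first. The TCF7L2-negative cells carried forebrain GABA genes, with 8 of 11 lower in positive cells, among them DLX5 (-3.44) and ISL1 (-2.47). SHOX2 therefore went with TCF7L2 in cluster 5 and against it in cluster 3, though the difference between the clusters was not itself tested, and EBF3 was lower with TCF7L2 in both (-1.37 ± 0.21 in cluster 5).

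Over all tested genes, 2.11% were higher and 2.37% lower in cluster 3, against 3.02% and 2.63% in cluster 5. Some Wnt pathway genes changed with TCF7L2 in cluster 5. Of the 3 tested TCF/LEF-list genes 2 were higher, LEF1 from 7.41 to 37.9 and from 11.6 to 41.0 CPM (2.14 ± 0.31, adjusted p = 5.54e-07, edgeR) and CTNNB1 from 259 to 447 and from 274 to 427 CPM (0.81 ± 0.10). Of 11 tested Wnt feedback and target genes 4 were higher and 2 lower. The feedback inhibitor AXIN2 went from 10.8 to 41.9 and from 14.1 to 30.6 CPM (1.63 ± 0.27). ZNRF3, an E3 ligase that removes Frizzled receptors, had 1.52 ± 0.30, the inhibitor NKD1 1.43 ± 0.45 and the cyclin CCND1 0.99 ± 0.31, and the 2 lower ones were DACT1 (-1.52) and the secreted inhibitor SFRP1 (-0.94). The receptor FZD10 (3.29 ± 0.35) was the 1 of 10 tested Wnt ligands and receptors that passed, with a list median of -0.19. The corepressor TLE1 (0.90 ± 0.19) was the 1 of 8 tested Groucho and coactivator genes that passed, with a list median of -0.28. In cluster 3, LEF1 (0.10 ± 0.15), AXIN2 (0.10 ± 0.20), CTNNB1 (0.20 ± 0.08) and ZNRF3 (0.01 ± 0.27) did not pass, no Wnt feedback gene of 11 did, FZD10 was lower (-1.28 ± 0.22) and TLE1 was higher (0.91 ± 0.24). In the SLC17A6 gate CTNNB1 was higher (0.46 ± 0.10), and SFRP1 (-1.64) and the receptor FZD2 (-1.94) were lower, while LEF1 (0.22 ± 0.23) and AXIN2 (0.47 ± 0.29) did not pass. Whether the Wnt genes differed between the clusters was not tested. The TCF7L2-negative cells of cluster 5 hold forebrain GABA genes as well, and the part of that mixture in the Wnt values was not tested.

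**Figure D4:**
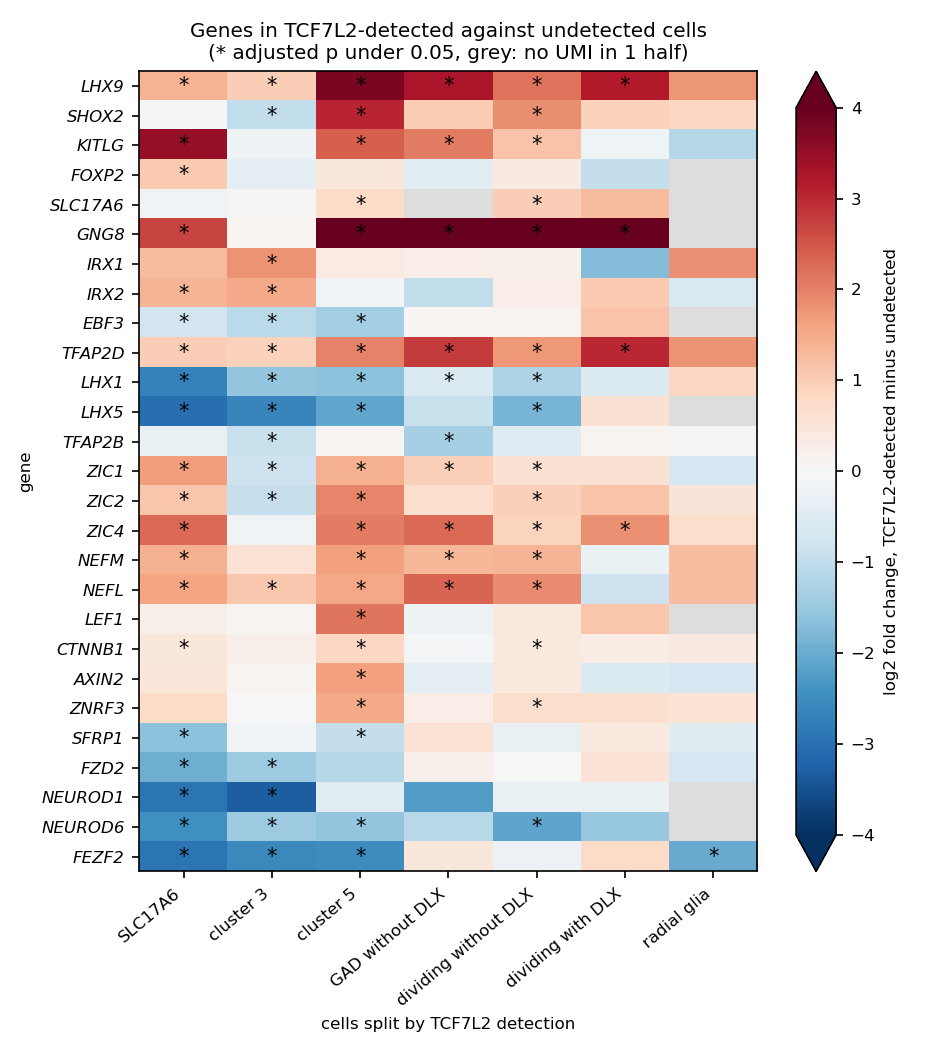
Log2 fold change between TCF7L2-detected and undetected cells (colour, red higher and blue lower, colour scale ending at 4 in each direction) for 27 list genes in 5 gates and in clusters 3 and 5, with an asterisk where the adjusted p was under 0.05 and grey where 1 side of the split held no UMI. LHX9 is red in every column and passed in all but radial glia, where it had 2 UMIs, while ZIC1 and SHOX2 change colour between clusters 3 and 5. SLC17A6, NEUROD6 and FEZF2 also define gates.

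Cells grouped by how many TCF7L2 UMIs they held, after each was thinned to 2000 UMIs, showed graded values. In cluster 3, cells with 0, 1, 2 to 3 and 4 or more TCF7L2 UMIs numbered 329, 78, 65 and 114 in embryo 1 and 619, 111, 125 and 188 in embryo 2. EBF3 was at 293, 199, 138 and 101 CPM in embryo 1 and 255, 167, 92.0 and 66.5 CPM in embryo 2, falling at every step in both. LHX9 rose at every step, from 146 to 386 and from 189 to 402 CPM between the first and last bins, and so did TFAP2D, from 277 to 654 and from 314 to 715 CPM. TFAP2B, the most abundant of these factors, was at 1377 and 1166 CPM in cells with no TCF7L2 UMI and at 237 and 247 CPM in cells with 4 or more. IRX2 stayed near its base at 1 UMI and reached 101 and 106 CPM in the last bin from 13.7 and 17 CPM. Thus EBF3 and TFAP2B marked the low end of TCF7L2 in this cluster and LHX9, TFAP2D and IRX2 the high end.

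In cluster 5 the first and last bins held 352 and 198 cells in embryo 1 and 397 and 191 in embryo 2, with 25 to 46 cells in each bin between. NEFM rose from 663 to 2576 and from 467 to 2767 CPM, and KITLG from 101 to 356 and from 74.3 to 524 CPM. LEF1 went from 8.52 to 35.4 and from 13.9 to 36.6 CPM between the first and last bins. EBF3 fell from 189 to 20.2 and from 107 to 15.7 CPM, and LHX1 from 176 to 40.4 and from 152 to 52.4 CPM. GNG8 did not follow the dose. It was at 21.3 and 35.3 CPM with no TCF7L2 UMI, 534 and 920 CPM with 1, 739 and 821 CPM with 2 to 3, and 444 and 377 CPM with 4 or more. These values describe the same cells as the split and are no second test of it.

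**Figure D5:**
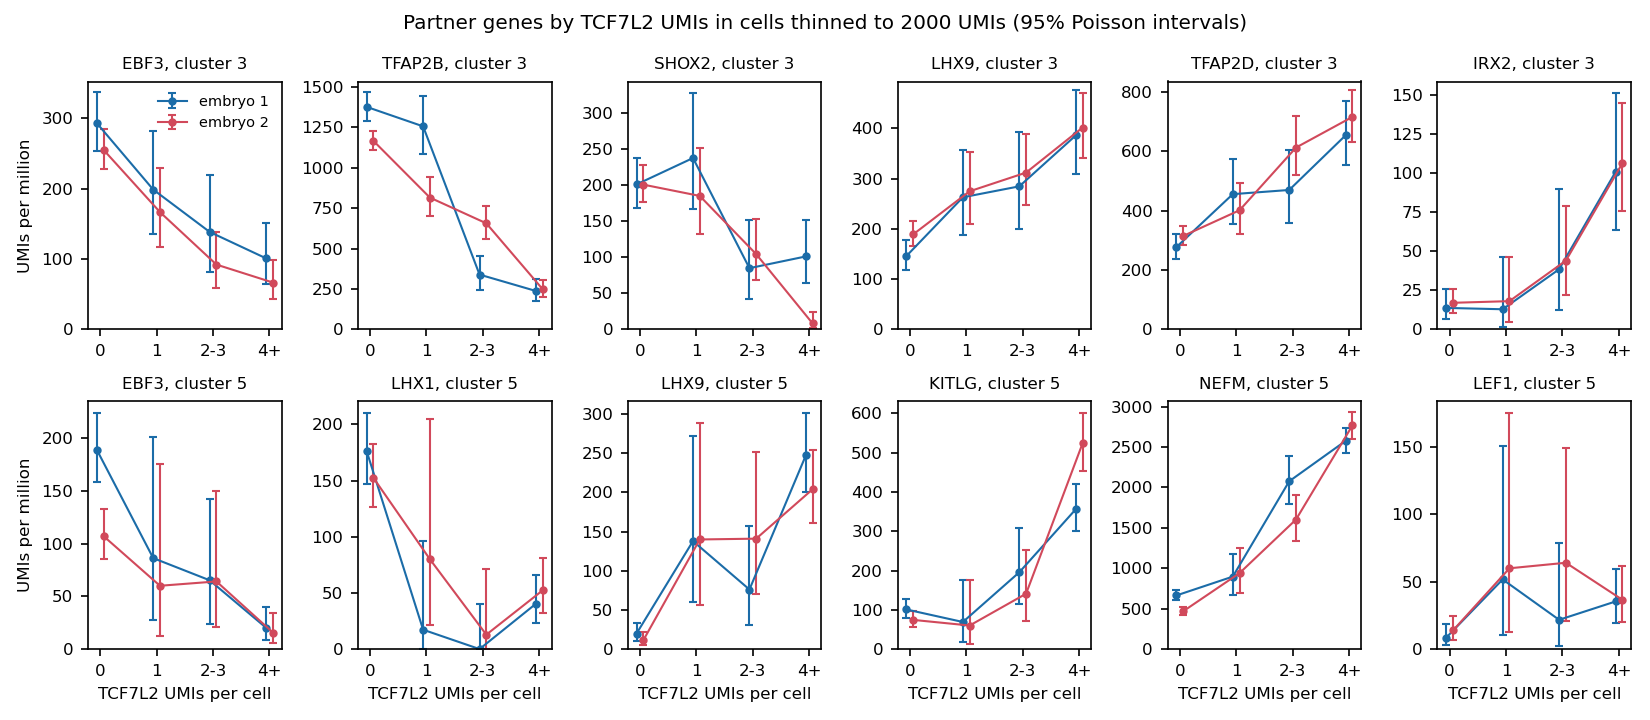
CPM of 6 partner genes in cluster 3 (top) and 6 in cluster 5 (bottom) in cells with 0, 1, 2 to 3 and 4 or more TCF7L2 UMIs after thinning to 2000 UMIs per cell, with lines for embryo 1 (blue) and embryo 2 (red) and bars for 95% Poisson intervals. EBF3 falls in both clusters, from 293 and 255 to 101 and 66.5 CPM in cluster 3, while LHX9 and TFAP2D rise in cluster 3 and KITLG and NEFM in cluster 5.

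In GABA cells without DLX, TCF7L2-positive cells were 88 and 145 against 1138 and 2175 without. Here 45 genes were higher, 0.625%, and 26 lower, 0.361%. This gate mixed cell groups too. It had 32 and 36 cells with 10 or more TCF7L2 UMIs, against 14 and 18 in all of GABA cluster 0 and 3 and 2 in forebrain GABA cluster 1. Of such cells in clusters 3 and 5, 12.6% and 13.8% held a GAD2 UMI. The part of this mixture in the calls was not tested. The higher genes included ones that also went with TCF7L2 in the SLC17A6 gate. GNG8 was at 1.03 and 1.35 CPM in negative and 41.0 and 18.1 CPM in positive cells (4.35 ± 0.57), and LHX9 at 4.46 and 5.99 against 44.1 and 58.5 CPM (3.26 ± 0.37, adjusted p = 6.26e-08, edgeR). ZIC4 (2.28 ± 0.39), KITLG (2.08 ± 0.29), NEFL (2.33) and DKK3 (1.22), a secreted Dickkopf family member, rose too. TFAP2D passed in the joint test (2.78) but rose in embryo 2 alone, at 5.49 against 3.15 CPM in embryo 1 and 13.7 against 121 CPM in embryo 2. MECOM, a zinc finger factor, had the largest change, from 1.37 and 0.193 to 28.4 and 68.5 CPM (6.2 ± 0.63), on 4 and 1 against 9 and 34 UMIs. Midbrain GABA factors were lower in 2 of 7 tested and higher in 0, TFAP2B (-1.32 ± 0.27) and ZFPM2, a GATA cofactor named FOG2 in the annotation (-1.19 ± 0.26). The neuropeptide SST fell by 1.96, S1PR1 by 1.40, AKIR2 by 1.40 and OTX2 by 0.92 on the log2 scale. SLC17A6 was part of the gate and was not read. HBB, a gene of the erythroid gate filled before this one, was also lower in the positive cells (-0.54). Without the cells of highest Scrublet score, 61 of the 71 calls were kept among 87. In cells thinned to 2000 UMIs, 38 of them were kept among 112 calls, of which 32 were higher and 80 lower, the opposite balance, and without a filter on low counts 52 were higher and 107 lower. The part of depth in these calls was not tested. The gate had 17 calls without the embryo as block.

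The difference of the split between glutamatergic and GABA cells was tested as an interaction, and 65 genes passed in either direction, 0.903%. WLS had 2.77 ± 0.22, going up with TCF7L2 in glutamatergic cells (2.08 and 1.98 in the embryos) and down in GABA cells (-0.70 and -0.72). IRX2 (2.33 ± 0.49), PDZRN4 (1.99 ± 0.46), FOXP2 (1.49 ± 0.37) and ZFHX4 (1.45 ± 0.26), a zinc finger homeobox factor, were the others most positive. CRYBA1, ARHGEF26 and VIL2, the gene of ezrin, were lower with TCF7L2 in glutamatergic cells and higher in GABA cells in both embryos. LHX9 rose in both but by more on the log2 scale in GABA cells (-1.86, adjusted p = 0.0039, edgeR), where its base was low. In CPM both its level and its rise were larger in glutamatergic cells. Both gates mix cell groups, and the part of that mixture in these differences was not tested.

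Dividing cells without DLX had 519 and 402 TCF7L2-positive cells against 1607 and 1141. This gate was filled by cell cycle genes before the neuron gates, so it also held cells from outside the progenitor-type clusters. It had 38 and 27 cells with 10 or more TCF7L2 UMIs. Dividing cell-like cluster 4 had 5 and 10 in all, and clusters 2, 6, 9 and 11 at most 4 each per embryo. The part of neuron-type cells in the calls was not tested. Of the tested genes 63 were higher, 0.876%, and 23 lower, 0.32%. Of 9 tested thalamus-list genes, 4 were higher and 0 lower. GNG8 went from 1.58 and 1.15 to 39.6 and 23.6 CPM (4.47 ± 0.29) and LHX9 from 4.89 and 6.12 to 24.3 and 24.9 CPM (2.17 ± 0.23, adjusted p = 7.2e-09, edgeR). SHOX2 (1.86), BARHL2 (1.90), POU4F2 (1.82), NEFM (1.35), ZIC2 (0.95) and the orphan nuclear receptor gene NR5A2 (2.48 ± 0.65) rose as well, and CTNNB1 (0.40) and ZNRF3 (0.71) were higher. TTR, the main transcript of choroid plexus, fell from 617 and 223 to 42.3 and 27.9 CPM (-3.50 ± 0.34), and APOE, C1QL3, NEUROD6, LHX1 and HBB were lower. TTR and HBB also belong to the choroid plexus and erythroid gates, which were filled before this one. Without the cells of highest Scrublet score, 67 of the 86 calls were kept, and the mean TCF7L2 level of dividing cluster 4 was 67.5 instead of 95.9 CPM. In cells thinned to 2000 UMIs 33 of the 86 were kept among 253, of which 132 were higher and 121 lower, and 9 genes passed without the embryo as block.

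In dividing cells with DLX, 178 genes were higher, 2.47%, and 97 lower, 1.35%, between 47 and 74 positive and 315 and 369 negative cells. Median depths there were 5124 and 5745 UMIs in positive against 4130 and 3895 in negative cells. The part of depth in these calls was not tested. LRP2, an endocytic receptor of neuroepithelium (4.99 ± 1.01, on 1 against 12 UMIs), SPON1 (4.59 ± 1.25, on 1 against 9) and GNG8 (4.25 ± 0.89, on 2 against 13) rose most. The progenitor genes NES (1.29) and VIM (0.83) were higher, and STMN2 (-0.80) and SST (-5.19 ± 1.5) were lower. DLX5 (-1.11) was lower too, but it is among the genes that define this gate. In embryo 2, 7 cells of the gate held 10 or more TCF7L2 UMIs, and in embryo 1 its highest cell held 7. CMTR1 and GMFB had no UMI in the positive cells and were at least 3.1-fold and 2.66-fold lower. In cells thinned to 2000 UMIs 9 genes passed, 5 of them among the 275, and 79 passed without the highest Scrublet scores, 63 of them shared. The balance turned with the setting, to 130 higher and 166 lower when scaled by library totals and 27 higher and 52 lower without the highest Scrublet scores. In non-dividing radial glia, with 28 and 36 positive cells against 140 and 147, 5 genes passed, 0.0695%, all lower. FEZF2, a dorsal forebrain factor, went from 145 and 122 to 55.2 and 19.4 CPM (-2.02 ± 0.43, adjusted p = 0.0442, edgeR), CDKN1C, a cell cycle inhibitor, from 358 and 714 to 126 and 329 CPM (-1.31 ± 0.28), and SYNE2 fell by 1.07. FEZF2 is also a gene of the cortical gate, which was filled before radial glia. With library totals, RLE size factors or no embryo block in edgeR 0 genes passed and by DESeq2 1 did, while the number of genes at an unadjusted p under 0.05 was 511 in the test as reported and 405, 413 and 420 in those with 0 calls. Cortical cells and GABA cells with DLX had 12 and 7, and 15 and 41, TCF7L2-positive cells and were too few to split.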

How the data were processed

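Single-cell RNA libraries (10x 3' v3) were made from the whole brains of 2 tree shrew embryos. The authors deposited raw UMI counts per gene model and barcode. The labels name fastp, Cell Ranger 3.1.0 and Seurat 3, and the study's methods name the TS_2.0 assembly. Barcodes with at least 200 genes were kept (8408 and 9327), and doublets were kept, the cells of highest Scrublet score (0.8% per 1000 cells) being left out as an alternative. Clusters used scanpy 1.11.5 (2000 variable genes without the TCF/LEF family, 20 components, 20 neighbours, Leiden at resolution 0.5). A cluster whose 10 leading genes held more habenula and thalamus list genes than its own markers stayed unnamed, a rule added after seeing the data. Summed counts of TCF7L2-positive and TCF7L2-negative cells were tested with edgeR 4.0.16 (quasi-likelihood F test, TMM, filterByExpr, embryo block, all gates in 1 fit with 9 residual degrees of freedom, Benjamini-Hochberg over all genes, threshold 0.05). SE is the log2 fold change divided by the root of F. Both sides of each split are cells of the same 2 embryos. The embryo block is 1 term shared by all gates, and the spread is pooled over them. The p-values therefore measure only how gates and splits together vary between these embryos. On simulated counts with 200 genes changed 4-fold, 81% were recovered in the SLC17A6 gate among 7052 genes and 78% in the GABA gate without DLX among 6977. The changed genes were drawn from those with more than 200 UMIs summed over all gates. The simulated spread was a fixed value, not the one estimated from the data. These rates therefore do not cover genes with few UMIs. Intervals and floors cover counting error only.

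The gene, its lists and tests were chosen with earlier results of these data known. Of 182 list genes, 156 were found in the annotation, 9 of them under other names (for example EBF2 as COE2 and NEFL as NFL); where a name had several models, the one with most UMIs was used. Genes named are TCF7L2, the 10 most like it, list members, and the genes of largest change. These last passed in the joint test over both embryos and had the same direction in each, but no embryo was tested alone. They were 12 a side in the SLC17A6 gate, 6 in the GABA gate without DLX, 3 in the others and 5 for the interaction. A few genes that meet this rule are not reported here. No sequence of the gene is shown.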

Additional observations from a re-analysis of the deposited data

Results flagged for a closer look

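The interaction test between glutamatergic (SLC17A6) cells and GABA cells without DLX singled out 10 genes whose change with TCF7L2 detection differed most between both classes, given here as the log2 change in glutamatergic cells minus that in GABA cells (edgeR quasi-likelihood test, adjusted p under 0.05 for each). The positive differences were 2.77 for WLS, 2.33 for IRX2, 1.99 for PDZRN4, 1.49 for FOXP2 and 1.45 for ZFHX4. WLS and IRX2 were higher with TCF7L2 in glutamatergic cells and lower in GABA cells in both embryos, and PDZRN4 was higher in both classes but by more in glutamatergic cells. The negative differences were -10.95 for FEZF1, -4.34 for CRYBA1, -4.32 for ARHGEF26, -3.66 for UNCX and -3.46 for VIL2. The value of FEZF1 rests on 22 UMIs in TCF7L2-negative and 0 in positive glutamatergic cells and on 1 and 2 in negative and positive GABA cells, so its size depends on the prior count of the fit. UNCX was lower with TCF7L2 in both classes. Both classes are gates that mix cell groups, and the part of that mixture in these differences was not tested.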

How the results depend on the processing

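Leaving out either embryo turned the direction of 0 of 51 named changes. This was fixed in advance, since genes were named only if both embryos had the same direction. With 2 embryos, leaving out either also moves a mean level by less than 1 SD by construction. The block is 1 embryo term shared by all gates, so it pairs the sides of a split only for differences common to the gates. Without the replicate block, the calls fell to 53 of 158 in the SLC17A6 gate, 17 of 71 in GABA cells without DLX, 9 of 86 and 87 of 275 in dividing cells without and with DLX, 0 of 5 in radial glia and 13 of 65 for the interaction. DESeq2 gave 104 in the SLC17A6 gate, 43 in dividing cells without DLX and 1 in radial glia, and RLE scaling and library totals (the latter chosen after seeing the data) gave 0 in radial glia. Without a filter on low counts there were 159 in GABA cells without DLX, 130 in dividing cells without DLX, 16 in radial glia and 110 for the interaction. In cells thinned to 2000 UMIs there were 112, 253, 9 and 32 (GABA without DLX, dividing without DLX, dividing with DLX, interaction), and with at least 2 UMIs against 0 there were 131, 535 and 43 (GABA without DLX, dividing without DLX, interaction). Without the highest Scrublet scores dividing cells with DLX had 79. The cause of these shifts was not tested.

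Within cluster 3 and cluster 5, a split chosen after seeing the data, 395 and 498 genes passed. Of the genes named in the SLC17A6 gate, 7 passed in cluster 3 with the same sign, 11 had that sign but did not pass, and 6 had the opposite sign. In cluster 5, 20 passed with the same sign and 4 had it but did not pass. None of the 6 genes of opposite sign passed in cluster 3. They were KITLG (-0.20), KLHL14 (-0.29), ZIC4 (-0.13), WLS (-0.82), CLYBL (-0.57) and POMC (0.011).

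TCF7L2 levels moved by more than 1 SD without the highest Scrublet scores in clusters 2 (57.3 CPM), 4 (67.5), 7 (27.3), 8 (6.10), 9 (76.0) and 10 (9.68), and with at least 1000 genes per cell in clusters 1 (26.1), 8 (87.2) and 10 (104). The highest level was 2956 CPM at resolution 1.0, and thinning put the share of positive cells in cluster 3 at 42.3%.

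Depth limits the low end: clusters 12, 10, 13, 14 and 15 had at most 21 TCF7L2 UMIs per embryo, and the finer erythroid-like clusters ran from 1.72 to 69.7 CPM, so no single background level can be given.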
